A study of Homo sapiens with 10 samples.

Results

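The genes described here are those that the array's platform table names VPS followed by a digit, SNX followed by a digit, or WASHC, with pseudogenes left out. They number 66 of 14884 named genes: 36 VPS genes, 26 SNX genes and 4 WASHC genes. The rule uses names alone, but it was set with earlier results of these data known. RNA came from clones of PC-3, an established human prostate cancer cell line, that carried a p-Lenti vector and had been selected with blasticidin. In 5 CENPU clones (numbers 1, 4, 5, 7 and 13) the vector held CENPU, a gene for a centromere protein, and in 5 control clones (numbers 1 to 5) it was empty. Each clone is a clonal isolate and gave 1 array, so a difference between the groups is read against the spread between clones. Which promoter drives CENPU in the vector is not stated in the labels. In bulk RNA of this kind, fewer cells of a type and less RNA per cell cannot be told apart.

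Endosomes receive membrane proteins taken up from the cell surface and decide whether each is recycled or sent to the lysosome for breakdown. The retromer, a trimer of VPS35, VPS26 and VPS29, works with sorting nexins (SNX proteins, which bind endosomal phosphoinositides through a PX domain) to carry cargo back to the Golgi or the surface. The WASH complex builds branched actin on these membranes, ESCRT proteins bud cargo into the endosome for breakdown, and the HOPS, CORVET and GARP complexes tether vesicles before they fuse. VPS13 proteins are long channels that move lipids between membranes at organelle contacts. The shared VPS name comes from yeast screens for vacuolar protein sorting, and some bearers of it act elsewhere.

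The deposited values are on the log2 scale, so a difference of 1 is a doubling of the measured signal. The arrays had medians between 4.62 and 4.76. The CENPU transcript itself ranged from 8.70 to 9.84 in CENPU clones and from 5.78 to 6.56 in control clones, so each clone matched its label. Of 5 markers of PC-3 cells measured, KRT18 averaged 10.61 (CENPU) and 10.82 (control), KRT19 10.87 and 10.53, KRT8 6.73 and 6.76, and VIM 8.52 and 7.79. VIM alone passed, with a log2 difference of 0.74 (limma adjusted p = 0.00446), while EPCAM, which averaged 6.85 in CENPU clones, had a larger one of 0.85 that did not pass (limma adjusted p = 0.0839). The prostate genes KLK3 and KLK2 stood between 5.57 and 5.61 in both groups. Of 3 markers of other cell types, the stromal gene DCN stood at 2.73 and 2.81, the endothelial gene PECAM1 at 5.38 and 5.11, and CD68, a lysosomal protein used as a macrophage marker, at 10.25 and 10.42; 0 passed in limma (0 also before adjustment). The 66 endosome genes were expressed above most others: 48 of them had a mean above that of the median named gene, and the middle member stood at percentile 70.0 of all gene means.

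In CENPU clones 5 of the 66 genes were higher and 4 were lower (limma, Benjamini-Hochberg adjusted p under 0.05 over all named rows), and 57 did not pass. The higher genes were WASHC5, VPS13C, VPS45, VPS13D and VPS41, and the lower genes were SNX11, VPS4A, VPS72 and SNX32. The 5 higher genes are 7.58% of the members, beside 5.31% of all named genes, and the 4 lower genes are 6.06%, beside 4.79%. These shares are near the background, so the number of calls is no result about endosome genes as a set. The higher genes had larger differences than the lower ones, with 4 of the 5 at a log2 difference of at least 1 and 0 of the 4 lower genes at -1 or below. Across all members the median log2 difference was 0.26, beside -0.02 for all named genes, and 40 members (60.6%) had a positive difference, beside 46.9% of all named genes. At an unadjusted p under 0.05, 22 members were higher and 7 lower, which is 33.3% and 10.6%, beside 14.8% and 13.1% of all named genes. Without control 2, CENPU 7 and CENPU 13 the median of the members was 0.08, with 3 higher and 0 lower (beside 1.4% and 1.75% of all named genes). These clones had been set apart by earlier results of these data. CENPU 13 often held the highest and control 2 the lowest member value of its group. Leaving them out, here and below, therefore tends to shrink positive differences and is a description only.

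**Figure D1:**
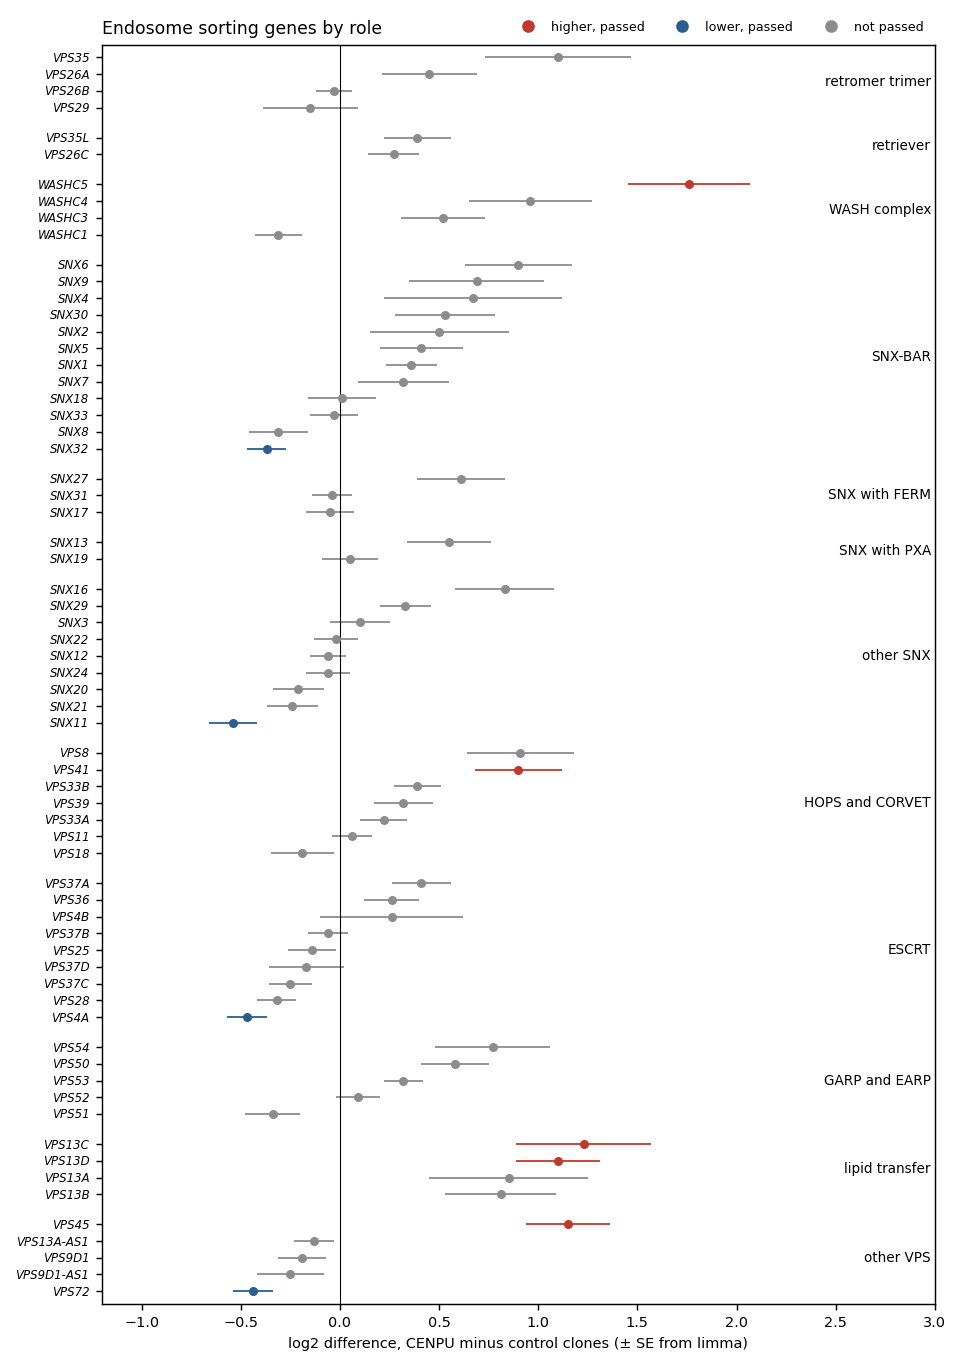
The log2 difference of each of the 66 genes (CENPU minus control clones, 5 clones in each group) with its standard error from limma, grouped by role; red and blue points passed the test. WASHC5 lies farthest to the right at 1.76 and SNX11 farthest to the left at -0.54.

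The largest rise was in the WASH complex. WASHC5 encodes strumpellin, a scaffold subunit of this actin-nucleating complex. Its log2 values were 8.09, 8.95, 9.29, 9.68 and 9.90 in CENPU clones 1, 4, 5, 7 and 13. The control clones stood at 7.71, 6.77, 7.63, 7.42 and 7.58 in the order 1 to 5. Every CENPU clone lay above every control clone, with CENPU 1 closest to the controls and control 2 well below the other controls. Means (here and below ± SD, n = 5 CENPU clones and n = 5 control clones) were 9.18 ± 0.71 against 7.43 ± 0.38, a log2 difference of 1.76 (SE 0.31), a 3.38-fold higher signal (limma adjusted p = 0.00719). Its call held in each of the 10 fits that left out 1 clone, with differences from 1.58 to 2.03. Without control 2, CENPU 7 and CENPU 13 it was 1.19 (limma adjusted p = 0.0279). The order of WASHC5 within the CENPU clones was not that of the CENPU transcript, which was lowest, at 8.70, in clone 5 and stood at 9.37 in clone 1. Clone 13 was highest for both, at 9.84 for CENPU and 9.90 for WASHC5. A relation between the 2 transcripts was not tested.

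The other measured subunits of the complex did not pass. WASHC4, known as SWIP, had values of 5.35, 6.07, 6.27, 6.85 and 7.36 in CENPU clones 1, 4, 5, 7 and 13 and of 5.13, 5.10, 5.71, 5.64 and 5.52 in control clones 1 to 5. Its groups overlapped only through CENPU 1, and means were 6.38 ± 0.77 against 5.42 ± 0.29, a log2 difference of 0.96 (SE 0.31; limma adjusted p = 0.0709), or 0.40 without control 2, CENPU 7 and CENPU 13. WASHC3, a small coiled-coil subunit, stood at 5.46, 5.36, 5.53, 6.14 and 6.57 in the CENPU clones and at 5.37, 5.40, 5.24, 5.22 and 5.20 in the controls. CENPU 4 alone lay within the control range, CENPU 7 and CENPU 13 were the farthest above it, and means were 5.81 ± 0.52 against 5.29 ± 0.09, a log2 difference of 0.52 (SE 0.21; limma adjusted p = 0.128). WASHC1, the subunit that activates the Arp2/3 complex, pointed the other way, with values of 9.12, 9.48, 9.10, 9.15 and 8.94 in CENPU clones and 9.21, 9.60, 9.65, 9.52 and 9.39 in controls. The groups overlapped, and means were 9.16 ± 0.20 against 9.47 ± 0.18, a log2 difference of -0.31 (SE 0.12; limma adjusted p = 0.120). WASHC1 has many near-identical copies in the genome, and its signal cannot be assigned to 1 copy with certainty.

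Of the 4 retromer trimer genes 0 passed in limma (1 at an unadjusted p under 0.05, VPS35, which had the largest difference). Over all named genes 14.8% were higher at that unadjusted threshold. VPS35 encodes the long solenoid subunit that holds the trimer together. It stood at 7.89, 8.41, 9.30, 9.68 and 9.91 in CENPU clones 1, 4, 5, 7 and 13 and at 8.25, 7.17, 8.23, 7.99 and 8.05 in control clones 1 to 5. CENPU clones 4, 5, 7 and 13 exceeded all controls, and clone 1 was below 4 of the 5. Means were 9.04 ± 0.86 against 7.93 ± 0.44, a log2 difference of 1.10 (SE 0.37; limma adjusted p = 0.0769), and of the fits without 1 clone only that without CENPU 1 called it, at 1.39 (limma adjusted p = 0.0153). VPS35 differed by 0.41 without control 2, CENPU 7 and CENPU 13. VPS26A, one of the arrestin-like subunits, stood at 8.32, 8.72, 9.33, 9.36 and 9.60 in the CENPU clones and at 8.72, 8.01, 8.88, 8.73 and 8.76 in the controls, with means of 9.07 ± 0.53 against 8.62 ± 0.35 and a log2 difference of 0.45 (limma adjusted p = 0.258). VPS26B, its paralog, stood at 7.23, 7.08, 7.38, 7.19 and 7.06 in the CENPU clones and at 7.34, 7.09, 7.29, 7.23 and 7.14 in the controls. Its groups overlapped, with means of 7.19 ± 0.13 against 7.22 ± 0.10 and a log2 difference of -0.03 (SE 0.09; limma adjusted p = 0.871). VPS29, the metallophosphoesterase-fold subunit, stood at 4.47, 4.30, 4.96, 5.07 and 5.66 in the CENPU clones and at 5.59, 4.79, 5.04, 4.84 and 4.95 in the controls. CENPU 1 and CENPU 4 were below all controls and CENPU 13 above them, with means of 4.89 ± 0.53 against 5.04 ± 0.32 and a log2 difference of -0.15 (SE 0.24; limma adjusted p = 0.735). VPS26C and VPS35L, the counterparts of these subunits in the retriever complex, differed by 0.27 and 0.39 and did not pass.

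The 4 VPS13 lipid transfer genes had a median log2 difference of 0.97, and VPS13C and VPS13D rose. Their median was 0.46 without control 2, CENPU 7 and CENPU 13. VPS13D, whose product is known for its part in mitochondrial and peroxisomal upkeep, stood at 6.06, 6.35, 6.79, 6.95 and 7.33 in CENPU clones 1, 4, 5, 7 and 13. Its control values were 5.77, 5.42, 5.75, 5.56 and 5.50. The groups did not overlap, and means were 6.69 ± 0.50 against 5.60 ± 0.15, a log2 difference of 1.10 (SE 0.21; limma adjusted p = 0.0106). Without control 2, CENPU 7 and CENPU 13 it was 0.76 (limma adjusted p = 0.0407). VPS13C, which acts where the endoplasmic reticulum meets late endosomes and lysosomes, stood at 4.28, 4.51, 5.07, 5.60 and 6.47 in the CENPU clones and at 4.10, 3.82, 4.09, 3.83 and 3.94 in the controls. The groups did not overlap, but CENPU 1 was only just above control 1, and the CENPU clones spread over 2.19 log2 units. The VPS13C row is dim, at percentile 27.7 of gene means. Means were 5.18 ± 0.88 against 3.96 ± 0.13, a log2 difference of 1.23 (SE 0.34; limma adjusted p = 0.0415). VPS13C kept its call in 3 of the 10 fits without 1 clone and lost it without CENPU 5, CENPU 7 or any of the 5 controls (limma adjusted p up to 0.101). In the 7 clones other than control 2, CENPU 7 and CENPU 13 it differed by 0.63 and did not pass (limma adjusted p = 0.0899). VPS13A had a log2 difference of 0.85 and VPS13B one of 0.81. Both had higher values in CENPU 5, CENPU 7 and CENPU 13 than in any control, and VPS13B also in CENPU 4. Both missed the threshold (limma adjusted p = 0.192 and 0.0855). In those 7 clones they differed by 0.09 and 0.30.

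Among the genes of membrane tethering and fusion, VPS45 and VPS41 rose. VPS45 encodes a Sec1/Munc18 protein that helps SNARE proteins fuse endosomal membranes. Its values were 7.37, 7.64, 8.17, 8.09 and 8.26 in CENPU clones 1, 4, 5, 7 and 13 and 7.01, 6.13, 6.87, 6.86 and 6.94 in control clones 1 to 5. Every CENPU clone was above every control, and control 2 was the lowest of all clones. Means were 7.91 ± 0.38 against 6.76 ± 0.36, a log2 difference of 1.15 (SE 0.21), or 2.21-fold (limma adjusted p = 0.00852), falling to 0.81 once control 2, CENPU 7 and CENPU 13 were dropped (limma adjusted p = 0.0333). VPS41, a subunit of the HOPS complex that tethers late endosomes to lysosomes, stood at 6.75, 6.93, 7.66, 7.86 and 7.93 in CENPU clones and at 6.56, 6.28, 6.69, 6.51 and 6.62 in controls. The groups did not overlap, with CENPU 1 and CENPU 4 near the controls. Means were 7.43 ± 0.55 against 6.53 ± 0.16, a log2 difference of 0.90 (SE 0.22; limma adjusted p = 0.0283). VPS41 lost its call without CENPU 5, 7 or 13 or without control 2, 3, 4 or 5 (limma adjusted p up to 0.0718). It differed by 0.52 in the 7 clones other than control 2, CENPU 7 and CENPU 13 (limma adjusted p = 0.185).

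The other 6 measured HOPS and CORVET genes did not pass. VPS8, a CORVET subunit of early endosomes, lay just outside the threshold with a log2 difference of 0.91 (limma adjusted p = 0.0549), at 6.28, 5.97 and 6.40 in CENPU clones 5, 7 and 13 and at most 4.98 in the controls. CENPU 1, at 4.87, was below 2 of the controls, and VPS8 differed by 0.53 in the same 7 clones. VPS33B, the Sec1/Munc18 partner of a related tether, differed by 0.39 with groups that did not overlap (limma adjusted p = 0.0576), its highest value, 7.28, being in CENPU 4. The shared core subunits differed little, by 0.06 for VPS11, 0.22 for VPS33A and -0.19 for VPS18, and VPS39 differed by 0.32. Of the 5 GARP and EARP genes, whose complexes receive vesicles at the Golgi and on recycling endosomes, 0 passed in limma. Before adjustment (limma p under 0.05) 3 were higher and 1 lower, beside 14.8% and 13.1% of all named genes. The GARP and EARP genes had log2 differences of 0.77 for VPS54, 0.58 for VPS50, 0.32 for VPS53, 0.09 for VPS52 and -0.34 for VPS51. Second rows of VPS52 and VPS51 differed by 0.25 and -0.23 and did not pass either.

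**Figure D2:**
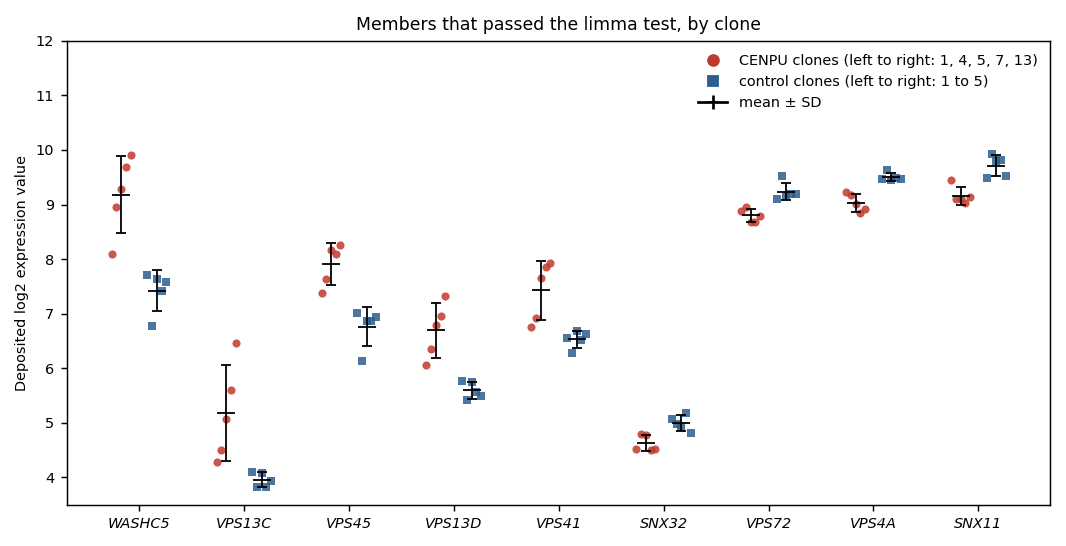
Deposited log2 values of the 9 genes that passed the limma test, 1 point per clone, with the mean and SD of the 5 clones in each group. WASHC5 values in CENPU clones lie between 8.09 and 9.90, above the control maximum of 7.71, whereas VPS4A values in CENPU clones all lie below the control minimum of 9.45.

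VPS4A was the ESCRT gene that fell. It encodes an ATPase that takes ESCRT-III filaments apart. Its values were 9.23, 9.17, 9.01, 8.85 and 8.91 in CENPU clones 1, 4, 5, 7 and 13 and 9.46, 9.64, 9.45, 9.49 and 9.47 in control clones 1 to 5. The groups did not overlap and the controls other than clone 2 lay within a narrow band. Means were 9.03 ± 0.17 against 9.50 ± 0.08, a log2 difference of -0.47 (SE 0.10; limma adjusted p = 0.0149). It was -0.33 without control 2, CENPU 7 and CENPU 13 and did not pass there (limma adjusted p = 0.119). VPS4B, the paralog, stood at 8.15, 8.64, 8.98, 9.41 and 9.95 in the CENPU clones and at 9.10, 7.64, 8.90, 9.13 and 9.07 in the controls, a log2 difference of 0.26 that did not pass (limma adjusted p = 0.677). The other ESCRT members ranged from -0.32 for VPS28 to 0.41 for VPS37A, both subunits of ESCRT-I. Between them lay VPS37C (-0.25), VPS37D (-0.17), VPS25 (-0.14), VPS37B (-0.06) and VPS36 (0.26). VPS37B has a second row, with a log2 difference of 0.07, and neither row passed.

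Among the 26 SNX genes 0 rose and 2 fell in limma, beside 5.31% and 4.79% of all named genes, with a median log2 difference of 0.08. Before adjustment (limma p under 0.05) 6 were higher and 2 lower, beside 14.8% and 13.1% of all named genes. With 26 genes these counts are no result about nexins as a set. SNX11, a small nexin with little beyond its PX domain, stood at 9.45, 9.11, 9.11, 9.02 and 9.13 in CENPU clones 1, 4, 5, 7 and 13 and at 9.49, 9.93, 9.79, 9.81 and 9.53 in control clones 1 to 5. CENPU 1 stood well above the other CENPU clones and just below the lowest control. Means were 9.16 ± 0.16 against 9.71 ± 0.19, a log2 difference of -0.54 (SE 0.12; limma adjusted p = 0.0170). SNX11 was called in each of the 10 fits without 1 clone, in 1 of them barely (limma adjusted p up to 0.0499). It was not called without control 2, CENPU 7 and CENPU 13, where it was -0.43 (limma adjusted p = 0.125). SNX32, an SNX-BAR protein close in sequence to SNX5 and SNX6, stood at 4.52, 4.79, 4.78, 4.51 and 4.53 in CENPU clones and at 5.07, 4.98, 4.93, 5.19 and 4.81 in controls. This row is dim, at percentile 31.6 of gene means, and CENPU 4 and control 5 were 0.02 apart. Means were 4.63 ± 0.14 against 4.99 ± 0.14, a log2 difference of -0.37 (SE 0.10; limma adjusted p = 0.0419), and the call held in 2 of 10 fits without 1 clone, those without CENPU 4 or control 5 (limma adjusted p up to 0.106 in the others). In the 7 clones the value was -0.30 (limma adjusted p = 0.239).

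The SNX-BAR nexins, which bend membrane into the tubules that carry cargo away, included 1 of the genes with the widest spread among the CENPU clones. SNX4, of the recycling route to the surface, stood at 5.39, 5.42, 6.62, 7.64 and 7.82 in CENPU clones 1, 4, 5, 7 and 13 and between 5.56 and 6.17 in controls. Its CENPU clones thus spread over 2.43 log2 units, beside 0.61 in the controls; among members only VPS13A, at 2.57, spread wider. The log2 difference was 0.67 (SE 0.45; limma adjusted p = 0.361). SNX2 and SNX9, the latter an endocytic nexin with an SH3 domain, also had their highest values in CENPU 7 and CENPU 13, at 7.60 and 7.75 for SNX2 and 8.94 in both for SNX9, and differed by 0.50 and 0.69. Without control 2, CENPU 7 and CENPU 13 the differences were -0.17 for SNX4, -0.23 for SNX2 and -0.01 for SNX9. The CENPU clones left out held the highest values of these genes, so smaller differences without them follow from the choice. SNX6, a retromer-linked nexin, came nearest to the threshold with a log2 difference of 0.90 (limma adjusted p = 0.0592), or 0.31 in the other 7 clones, and its paralog SNX5 differed by 0.41. SNX1, the partner of SNX2, differed by 0.36, SNX30 by 0.53, SNX7 by 0.32, SNX18 by 0.01, SNX33 by -0.03 and SNX8 by -0.31.

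SNX27, which couples PDZ-binding cargo to retromer, differed by 0.61 (limma adjusted p = 0.0943), with control 2 at 7.59 and the other controls between 8.34 and 8.89. Its FERM-domain relatives SNX17 and SNX31 differed by -0.05 and -0.04. Of the nexins with a PXA domain ahead of the PX domain, SNX13 differed by 0.55 and SNX19 by 0.05. SNX16, a nexin of early and late endosomes, did not overlap between groups, at 5.41 to 6.81 in CENPU clones and 5.09 to 5.30 in controls, and missed the threshold with a log2 difference of 0.83 (limma adjusted p = 0.0573), or 0.36 without control 2, CENPU 7 and CENPU 13. The remaining nexins had log2 differences from -0.24 for SNX21 to 0.33 for SNX29. Among them were SNX20 (-0.21), SNX12 (-0.06), SNX24 (-0.06), SNX22 (-0.02) and SNX3 (0.10), the last a partner of retromer. SNX29 has near-identical pseudogene copies, so its signal is uncertain.

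VPS72 fell, but it is no endosome gene by function: its product, YL1, is a chaperone that helps remodelling complexes place the histone variant H2A.Z in chromatin. It stood at 8.89, 8.96, 8.68, 8.68 and 8.79 in CENPU clones 1, 4, 5, 7 and 13 and at 9.11, 9.52, 9.16, 9.20 and 9.20 in control clones 1 to 5. The groups did not overlap and control 2 was the highest clone. Means were 8.80 ± 0.13 against 9.24 ± 0.16, a log2 difference of -0.44 (SE 0.10; limma adjusted p = 0.0233), and the call was lost without CENPU 5, CENPU 7, control 2 or control 4 (limma adjusted p up to 0.0604). It was -0.32 in the 7 clones other than control 2, CENPU 7 and CENPU 13 (limma adjusted p = 0.145). VPS9D1 and the antisense transcripts VPS9D1-AS1 and VPS13A-AS1, which the name rule also takes in, differed by -0.19, -0.25 and -0.13. Whether the array separates the strands is not stated here, so the values of an antisense RNA and its partner are uncertain.

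In all, the groups did not overlap for 7 members that were higher and 4 that were lower in CENPU clones. These are 10.6% and 6.06% of the members, beside 4.54% and 5.19% of all named genes. The 9 genes that passed are among these 11, and SNX16 and VPS33B are the others. Calls for WASHC5, VPS13D, VPS45, VPS4A and SNX11 held in all 10 fits that left out 1 clone. The highest limma adjusted p in those fits was 0.0499 for SNX11 and 0.0413 for VPS4A. It was 0.0322 for VPS13D, 0.0248 for VPS45 and 0.0232 for WASHC5. Of these genes, WASHC5, VPS13D and VPS45 also passed in the fit of 7 clones, without control 2, CENPU 7 and CENPU 13.

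Promoter sequence is shown for VPS45 and VPS13D, which rose, and for VPS4A and SNX11, which fell, since their calls held in every fit without 1 clone. The call of WASHC5 held as well, but no window was found for it. The windows are from RefSeq on GRCh38.p14 and run from 250 bases before to 50 bases after a transcription start. Where a gene has several windows, that of highest GC content is given. Capitals mark a CCAAT box (CCAAT) or a GC box (GGGCGG) on either strand, and neither motif contains the other.
VPS45: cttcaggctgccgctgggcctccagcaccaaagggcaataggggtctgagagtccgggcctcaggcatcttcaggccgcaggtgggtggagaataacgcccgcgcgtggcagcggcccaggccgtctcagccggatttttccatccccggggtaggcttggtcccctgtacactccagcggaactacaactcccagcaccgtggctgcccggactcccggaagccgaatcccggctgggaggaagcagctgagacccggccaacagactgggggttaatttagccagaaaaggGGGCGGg
VPS13D: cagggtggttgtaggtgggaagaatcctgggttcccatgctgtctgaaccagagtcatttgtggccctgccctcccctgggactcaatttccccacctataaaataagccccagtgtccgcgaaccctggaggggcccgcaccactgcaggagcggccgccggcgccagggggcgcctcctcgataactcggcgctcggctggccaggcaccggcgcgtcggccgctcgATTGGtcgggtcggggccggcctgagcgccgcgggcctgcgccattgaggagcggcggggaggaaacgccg
VPS4A: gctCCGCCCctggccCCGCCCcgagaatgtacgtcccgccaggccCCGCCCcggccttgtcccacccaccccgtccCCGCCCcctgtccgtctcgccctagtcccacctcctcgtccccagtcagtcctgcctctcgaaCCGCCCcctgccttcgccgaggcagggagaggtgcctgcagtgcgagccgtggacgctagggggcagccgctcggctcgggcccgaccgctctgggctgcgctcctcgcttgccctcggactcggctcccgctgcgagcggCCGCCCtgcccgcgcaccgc
SNX11: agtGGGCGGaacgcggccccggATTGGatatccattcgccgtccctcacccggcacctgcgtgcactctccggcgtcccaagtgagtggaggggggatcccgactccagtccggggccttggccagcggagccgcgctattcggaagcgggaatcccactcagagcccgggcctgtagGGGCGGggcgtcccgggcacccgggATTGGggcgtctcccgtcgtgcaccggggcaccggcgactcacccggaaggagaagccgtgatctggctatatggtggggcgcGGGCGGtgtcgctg

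The VPS45 window is chr1:150067526-150067825, that of VPS13D chr1:12229780-12230079, that of VPS4A chr16:69311100-69311399 and that of SNX11 chr17:48107516-48107815, all on the plus strand. The VPS4A window holds 6 GC boxes and the SNX11 window 3, while the VPS45 window holds 1 and the VPS13D window 0. Taking the window of highest GC content favours GC boxes: another SNX11 window holds 1, and another VPS45 window, of 49.3% GC, holds 0. Among the windows shown, VPS13D has 1 CCAAT box and SNX11 has 2, and the others have 0, while the VPS45 window not shown has 1. GC content was 65.0% in VPS45, 68.7% in VPS13D, 76.3% in VPS4A and 70.7% in SNX11. Windows were found for 48 of the 66 members, 57 windows in all. Their median GC content was 67.0%, beside 58.7% over all 35116 windows of 27305 RefSeq genes. That set is wider than the named genes of the array and was not matched to the members by gene type or expression. A GC box occurred in 70.2% of the members' windows beside 45.0% of all windows, a CCAAT box in 31.6% beside 34.6%, and an E-box (CACGTG, which reads the same on both strands) in 15.8% beside 7.26%. An E-box was found in 0 of the 8 windows of genes that passed. These matches describe the letters of the windows and were not tested.

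The members followed the clones in a shared pattern. CENPU 13 had the highest value among CENPU clones for 32 of the 66 genes (48.5%, beside 25.1% of all named genes), and CENPU 1 the lowest for 23 (34.8%, beside 19.8%). Control 2 had the lowest value among controls for 35 members (53.0%, beside 32.0%). Relative to the mean of all clones, the members' median deviations in CENPU clones 1, 4, 5, 7 and 13 were -0.08, -0.06, 0.07, 0.10 and 0.31. In control clones 1 to 5 it was -0.08, -0.28, -0.02, -0.16 and -0.08. CENPU 1 and CENPU 4 thus lay within the range of the controls, while over all named genes the medians of the clones lay between -0.06 and 0.01. For the 5 genes that rose, the mean deviation was likewise smallest among CENPU clones in clone 1, at -0.16, and largest in clone 13, at 1.31.

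**Figure D3:**
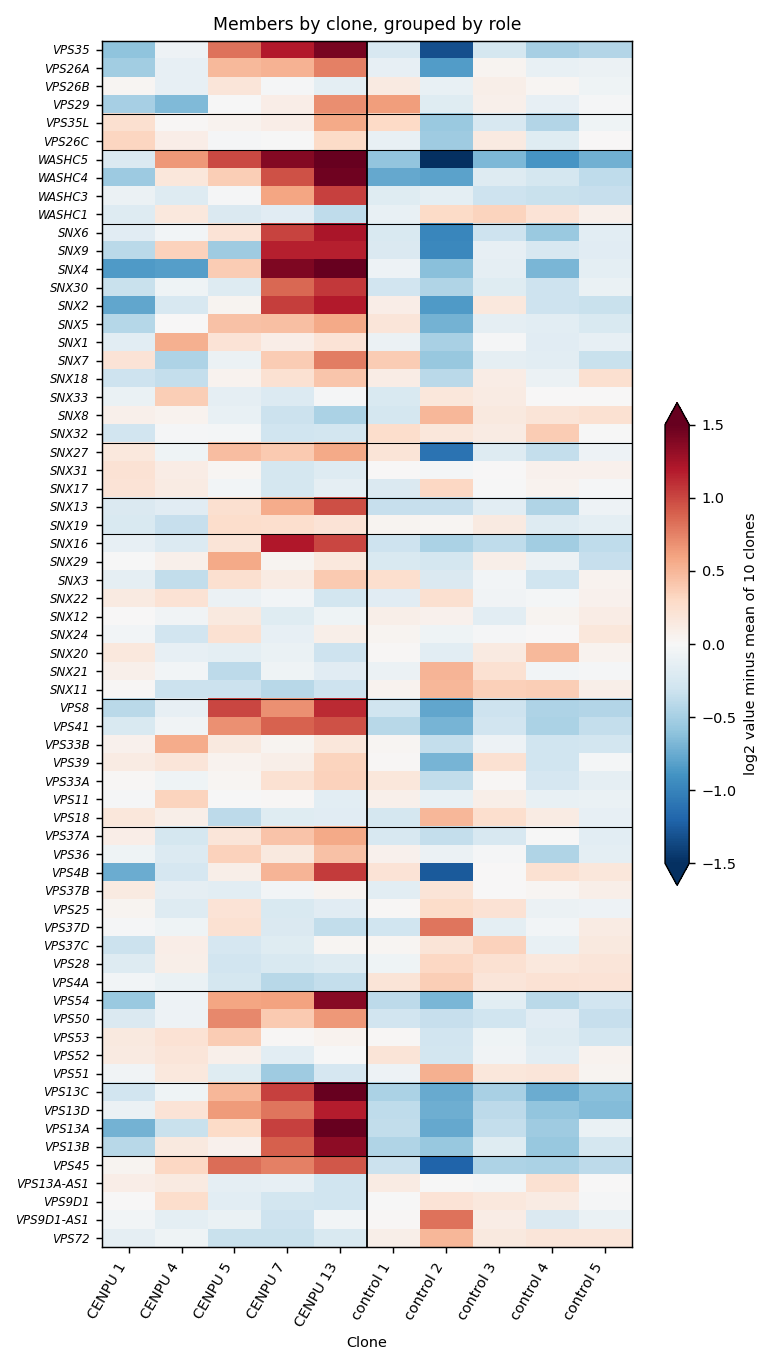
Each of the 66 genes in each of the 10 clones as the log2 value minus the gene's mean over all clones, grouped by role; colours are capped at 1.5 in either direction. Red cells gather in CENPU 7 and CENPU 13 for the VPS13 genes, SNX4 and WASHC5, and the deepest blue cells lie in control 2.

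The differences also went with the length of the genes. The 64 protein-coding members had a median genomic span of 48.8 kb, beside 26.7 kb for all protein-coding genes, by RefSeq annotation. All 5 genes that rose span over 38.8 kb, which places them in the longest 2 quintiles of protein-coding genes, and all 4 that fell span less than that. All protein-coding genes tilt the same way: 8.27% and 11.5% were higher in the fourth and the longest quintile beside 2.18% in the shortest, and 8.39% were lower in the shortest beside 1.72% in the longest. In the longest quintile, over 88.4 kb, the 19 members had a median log2 difference of 0.55, beside 0.13 for all genes of that quintile. The fourth quintile gave 0.51 for 16 members beside 0.08, and the third 0.22 for 11 members beside 0.01. In the second quintile the 13 members had a median of -0.21 beside -0.07, and in the shortest the 5 members had -0.14 beside -0.11. Ranked by span, the 64 members gave a Spearman correlation of 0.690 with the log2 difference, and all protein-coding genes gave 0.327. These points share the same 10 arrays, so the correlation is a description.

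**Figure D4:**
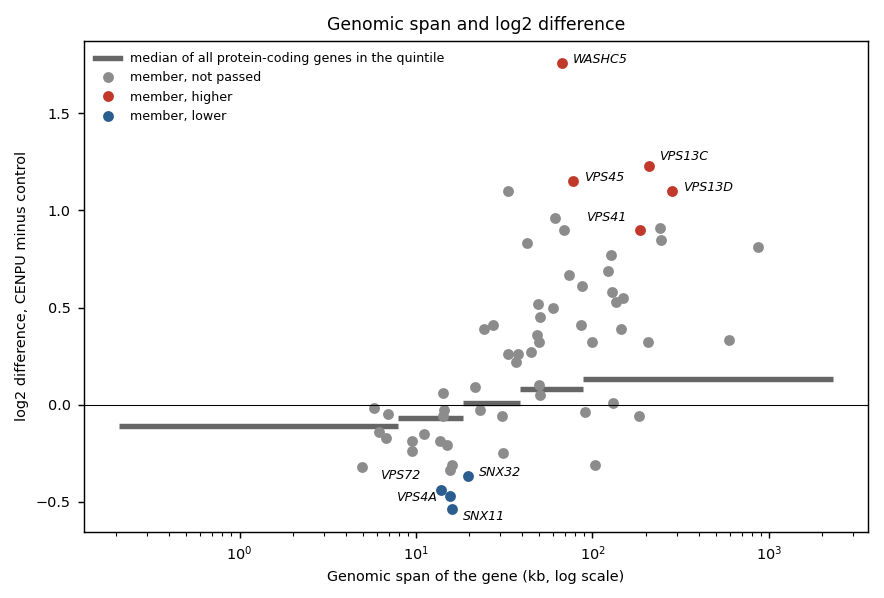
Genomic span (kb, log scale) against the log2 difference of the 64 protein-coding members, with grey bars for the median of all protein-coding genes in each span quintile. Members under 10 kb lie below 0, and the 5 that rose span over 38.8 kb.

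Within single clones the correlation between span and deviation across members took the values -0.271, -0.125, 0.561, 0.635 and 0.672 for CENPU clones 1, 4, 5, 7 and 13. It was -0.376, -0.647, -0.566, -0.600 and -0.490 in control clones 1 to 5. All protein-coding genes gave -0.16, -0.0358, 0.197, 0.316 and 0.36 in the same CENPU clones. In the controls they gave -0.0934, -0.355, -0.163, -0.279 and -0.165, so the pattern is not particular to the members. Deviations are taken from the mean of all 10 clones, so opposite signs in the groups partly restate the correlation with the log2 difference. A loess trend on span, fitted over all named rows with a known span, was then removed from each array. This left 5 members higher and 3 lower, beside 5.55% and 4.37% of all named genes. The correlation with span was weaker over all protein-coding genes (0.327) than over the members (0.690). This step therefore does not measure how much of the members' own trend lies in their calls. WASHC5 then differed by 1.63, VPS45 by 1.00 and VPS13D by 0.94, and SNX32 no longer passed at -0.34 (limma adjusted p = 0.0547). The median of the members fell to 0.16.

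Other endosome genes were read from lists by complex, whose counts stand beside 5.31% of all named genes higher and 4.79% lower. In the ESCRT machinery outside the VPS names, TSG101, the cargo-binding subunit of ESCRT-I, and CHMP5, an ESCRT-III regulator, rose, CHMP6 fell, and 13 of 16 did not pass. TSG101 ranged from 8.30 to 8.85 (median 8.33) in CENPU clones and from 7.67 to 8.21 (median 7.84) in controls, a log2 difference of 0.60 (limma adjusted p = 0.0237). CHMP5 differed by 1.03 and CHMP6 by -0.52 (limma adjusted p = 0.0208 and 0.0358). Of 16 tether and SNARE genes, VAMP3, the SNARE of recycling endosomes, and VTI1A, a Golgi and endosome SNARE, rose. VAMP3 stood at 9.21, 9.61, 9.97, 9.76 and 9.86 in CENPU clones 1, 4, 5, 7 and 13 and at 8.90, 8.12, 8.65, 8.40 and 8.65 in control clones 1 to 5. Its groups did not overlap, its log2 difference was 1.14 (SE 0.17; limma adjusted p = 0.00401), and it differed by 0.95 without control 2, CENPU 7 and CENPU 13 (limma adjusted p = 0.0255). VTI1A differed by 0.52 (limma adjusted p = 0.0257).

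Among 9 measured receptors and other cargo of these routes, EGFR, which ESCRT sends to the lysosome, and LRP6, a Wnt co-receptor, rose, by 0.87 and 1.18 (limma adjusted p = 0.00649 and 0.0235). USP7, a deubiquitinase that acts on WASH, rose by 0.91 (limma adjusted p = 0.0379), and the other 3 measured partners of WASH or Arp2/3 did not pass. Of the 12 Commander complex genes beyond VPS26C and VPS35L, the 10 phosphoinositide enzymes and the 4 retromer cofactors, 0 passed in limma, with median log2 differences of 0.22, 0.37 and 0.02. At an unadjusted p under 0.05 there were 5 higher and 1 lower Commander genes, 4 higher and 0 lower phosphoinositide enzymes, and 0 cofactors, beside 14.8% of all named genes higher and 13.1% lower. Without control 2, CENPU 7 and CENPU 13, VAMP3 and EGFR were the listed genes that passed. Calls in all 10 fits without 1 clone were kept by VAMP3 and EGFR. Without CENPU 7, control 2 or control 4 the calls of CHMP5, TSG101, LRP6, VTI1A, USP7 and CHMP6 were all lost. TSG101 was also lost without control 5, LRP6 without CENPU 5, and VTI1A without CENPU 5, CENPU 13 or control 5. USP7 and CHMP6 were lost without CENPU 5, CENPU 13, control 3 or control 5 as well.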

How the data were processed

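RNA of 10 PC-3 clones was labelled with biotin and read on a 1-channel Affymetrix array. The values used are log2 values deposited by the authors, made with Partek and RMA per the submitters' processing notes; versions, build and any later step are not given in the sources used here, and the log2 scale was inferred from the value range. RMA equalises arrays, so a shift shared by most genes would be lost, and background shrinks differences of dim rows. Arrays have no read depth, and the number of clones limits the precision. No scanner files were used here.

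Of 53617 rows, 16098 had 1 gene symbol in the platform table, 0 had several and 37519 none. Symbols were updated by gene ID to RefSeq (GRCh38.p14), giving 14884 genes, each represented by its row of highest mean; RefSeq positions served only for span and promoter windows. VPS16, SNX10, SNX14, SNX25, WASHC2A and WASHC2C had no named row and were not analysed here.

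Rows were fitted with limma 3.58.1 (R 4.3.3; lmFit, eBayes, no covariates), with Benjamini-Hochberg adjustment over 16098 rows and a threshold of 0.05. The fit was tested on simulated data with noise independent between rows, so deviations shared by many genes within a clone were not covered. Paralog pairs were compared by exact two-sided permutation tests. Every member is named, with values per clone for those that passed and for the retromer and WASH subunits; values per clone of some others were chosen after they were seen, as were the shown promoters, the motifs and the pairs. From the other endosome lists, every gene that passed is named; the rule allowed up to 4 a list. The members and lists were chosen with earlier results of these data known. Alternatives covered scaling, filters, variance models, thresholds, the clone number as a block and leaving out clones, each in turn and control 2, CENPU 7 and CENPU 13 together, which earlier results had set apart.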

Additional observations from a re-analysis of the deposited data

Results flagged for a closer look

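In a group of 5 clones, a clone was singled out when its gap to the nearest other clone exceeded 0.71 of the group's range (Dixon's 95% value). This gave 10 clones and genes among 148 groups of values checked, and chance gives about 1 in 20. Control 2 accounts for 7 of the 10. Its value was low for SNX9 (6.81, others 7.54 to 7.65), VPS26A (8.01, others 8.72 to 8.88), VPS35 (7.17, others 7.99 to 8.25), VPS45 (6.13, others 6.86 to 7.01) and VPS4B (7.64, others 8.90 to 9.13). It was high for VPS4A (9.64, others 9.45 to 9.49) and VPS72 (9.52, others 9.11 to 9.20). CENPU 4 was high for VPS28 (9.43, others 9.05 to 9.15) and VPS33B (7.28, others 6.77 to 6.90). CENPU 1 was high for SNX11 (9.45, others 9.02 to 9.13).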

How the results depend on the processing

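Counts of members that passed were 5 higher and 4 lower with all clones. With array weights 15 were higher (beside 8.75% of all named genes, against 5.31% above), with ordinary variances 3 (1.93%), at a threshold of 0.01 there were 2 higher and 0 lower (0.873% and 0.826%), and at 0.10 there were 16 higher (9.46%). Leaving out 1 clone gave 3 to 17 higher and 2 to 6 lower, the largest counts of higher genes being 17 without CENPU 1 and 10 without CENPU 4. All named genes swung in the same fits, with 9.83% higher without CENPU 1, 7.73% without CENPU 4 and 2.00% without control 4. There were 3 higher without CENPU 5, CENPU 7 or control 2, 3, 4 or 5, beside 2.00% to 3.02% of all named genes. There were 2 lower without CENPU 5, CENPU 7, control 2 or control 4, beside 2.12% to 2.79%. Without control 2, CENPU 7 and CENPU 13 there were 3 higher and 0 lower in limma, beside 1.4% and 1.75% of all named genes. The median there was 0.08, with fewer clones in the fit, and before adjustment 9 members were higher and 6 lower. With the replicate block 0 were higher and 0 lower in limma, beside 0.148% and 0.222% of all named genes, and the median was 0.07. Before adjustment, at limma p under 0.05, 10 members were higher and 4 lower. For these fits the shares of all named genes before adjustment were not computed, so no lean of the members is read from these unadjusted counts. Only clone numbers 1, 4 and 5 occur in both groups, and their deviations correlated at -0.375, 0.104 and 0.0249. The best match of CENPU 1 and CENPU 4 was control 2, and that of CENPU 5 was control 5. Whether equal numbers share more than a name cannot be decided from these correlations. Quantile normalization gave 6 higher and 5 lower (median 0.21), beside 5.07% and 6.4% of all named genes. Median centring gave 5 and 4 (median 0.20), beside 4.91% and 6.12%, and shifted all genes to a median of -0.08. The filter on dim rows gave 7 and 3 among 49 members left, beside 11.1% and 9.89% of the genes left. The fit of unnamed rows as well gave 4 higher and 3 lower, beside 3.98% and 3.82%. No member that passed changed sign in any of these fits.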

Other observations

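Several endosome genes come as close paralogs, and for 9 pairs the within-clone log2 difference between the paralogs was compared between the groups. The pairs were picked after the values had been seen. After Benjamini-Hochberg adjustment over the 9 pairs, 0 passed the exact two-sided permutation test, in which SNX6 minus SNX5 had the smallest unadjusted p. Its mean was 1.05 ± 0.38 (SD, n = 5) for CENPU and 0.57 ± 0.19 (SD, n = 5) for control clones (exact permutation p = 0.0476, adjusted p = 0.357). VPS4B minus VPS4A averaged -0.01 ± 0.84 (SD, n = 5) in CENPU and -0.73 ± 0.71 (SD, n = 5) in control clones (exact permutation p = 0.190, adjusted p = 0.429). The shift of 0.73 became -0.13 without control 2, CENPU 7 and CENPU 13. So although VPS4A passed and VPS4B did not, the data do not show that the paralogs differ in their response. VPS26A minus VPS26B shifted by 0.48 (exact permutation p = 0.119, adjusted p = 0.357) and SNX9 minus SNX18 by 0.68 (exact permutation p = 0.0873, adjusted p = 0.357). VPS33A minus VPS33B, SNX2 minus SNX1, SNX3 minus SNX12, SNX30 minus SNX7 and SNX21 minus SNX20 shifted by -0.17, 0.14, 0.16, 0.20 and -0.02, with adjusted exact permutation p from 0.551 to 0.921.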
